A study of Bos taurus with 8 samples.

Results

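Amino acid carriers are the membrane proteins through which mammary epithelial cells take up the amino acids that become milk protein. A list of 9 carrier genes was followed here (SLC7A5, SLC3A2, SLC7A8, SLC7A1, SLC1A5, SLC38A2, SLC36A1, SLC1A1 and SLC1A3), and its members were taken as every probe set that the array's annotation assigns to exactly 1 of these symbols. That rule found 8 probe sets for 7 of the 9 genes, among 24016 probe sets and 9155 named genes in all, with 2 probe sets for SLC38A2 and 1 for each of the others. SLC7A8 and SLC36A1 had no such probe set and were not analysed here.

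The tissue was lactating mammary gland, biopsied from 4 cows of the Holstein breed (Bos taurus), and each of the 8 RNA samples was hybridised to a single-colour array of its own. A cow was sampled once when 12 h had passed since milk was last removed (labelled full) and once at 0 h (labelled empty), and the 2 states were compared within the cow. The stated question is the effect of accumulating milk on the gland's transcripts. The labels give no treatment, genotype or age, nor the part of the udder or the order of sampling, and anything that differed along with the state cannot be separated from it.

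The carriers fall into a few transport systems. SLC7A5 is the light chain of an exchanger that brings in leucine and other large neutral amino acids, and it reaches the cell surface only when bound to the heavy chain SLC3A2. SLC1A5 and SLC38A2 take up glutamine and other small neutral amino acids together with sodium, and some of these amino acids are then exchanged for leucine by SLC7A5. SLC7A1 carries the cationic amino acids arginine and lysine, while SLC1A1 and SLC1A3 carry glutamate and aspartate. Leucine and arginine inside the cell are detected by sensor proteins that act on the mTORC1 kinase. A shortage of amino acids acts through the kinase GCN2 and the transcription factor ATF4, which is known to raise transcription of several carriers.

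Values are log2 signals, so that a difference of 1 is a doubling, and signals of different probe sets are not compared as amounts of RNA. The luminal epithelial markers with the highest mean signal, ELF5 and KRT19, lay at 13.52 ± 0.08 and 13.29 ± 0.15 in empty gland (SD, n = 4). Picked for their signal, they are no test of the tissue label. Some markers picked in this way for other cell types were also high there, such as FABP4 of adipocytes (13.11) and COL3A1 of fibroblasts (12.50). FABP4 stood apart from its list, since the next brightest adipocyte marker, PNPLA2, read 7.19. The mean of the 6 measured adipocyte markers was 7.37 to 7.45 in empty samples. AHSP of erythrocytes read 6.37. The milk protein gene PAEP, beta-lactoglobulin, read 14.38 ± 0.05. Among the arrays, 2 full libraries (cow 2 and cow 4) were least like the rest, correlating with the remaining arrays at a median r of 0.969 and 0.975, where the 6 other libraries had 0.986 to 0.987. In the full library of cow 2 the 5' minus 3' difference of the GAPDH control probe sets was -3.31 log2, against -2.13 to -1.53 in the other 7 arrays (oligo(dT) priming makes 5' signals fall when RNA is broken). The same held for the controls of EEF1A1, with a 5' minus 3' difference of 0.75 against 1.25 to 1.96, and of PPIB, at -2.54 against -2.02 to -1.87.

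Of the 7 carriers, 4 had a lower and 3 a higher mean in the full gland, and the largest mean differences were those of SLC7A5 (-0.32) and SLC1A3 (0.23). The median difference over the 7 genes was -0.05, against -0.0036 over the 9155 genes. With limma's paired model 0 of the 8 probe sets passed an adjusted p of 0.05, as did 0% of all 24016. At an unadjusted p under 0.05 there was 1 of the 8, that of SLC7A5, where 2.50% of all probe sets were below that value. No carrier had full and empty groups that did not overlap, which was seen for 0.812% of all probe sets. A biopsy mixes cell types, so fewer cells of a type and less RNA per cell cannot be told apart in any of these values.

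**Figure D1:**
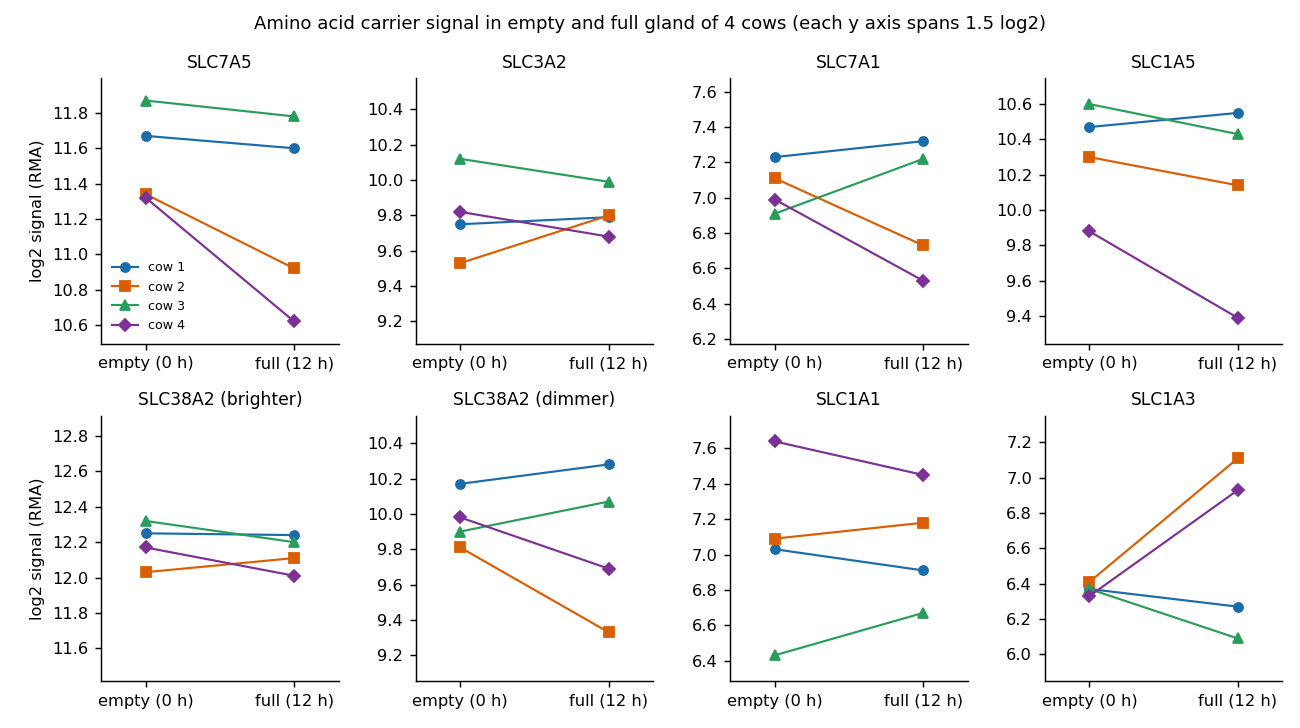
Log2 signal of each carrier probe set (vertical axes, each spanning 1.5 log2) in empty (0 h) and full (12 h) gland, with 1 line and marker per cow. All 4 lines descend for SLC7A5, steeply in cows 2 and 4, whereas for SLC1A3 the 4 empty samples lie between 6.33 and 6.41 and the full samples spread from 6.09 to 7.11.

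SLC7A5, the light chain for leucine, read 11.67, 11.34, 11.87 and 11.32 in the empty gland of cows 1 to 4. In the full gland it read 11.60, 10.92, 11.78 and 10.62. Each cow was lower when full, by little in cows 1 and 3 (-0.06 and -0.09) and by more in cow 2 (-0.43) and cow 4 (-0.70), and the groups overlapped because the full samples of cows 1 and 3 exceeded the empty samples of the other cows. A shared downward direction in all 4 cows was seen for 5.97% of all probe sets, and SLC7A5 was the 1 carrier probe set of 8 with 1 direction in all cows, beside 10.2% of all probe sets. The mean difference was -0.32 ± 0.13 log2 (moderated SE from limma over 4 cows, as for every SE that follows), a 1.25-fold lower signal with an unadjusted 95% interval of -0.63 to -0.01. It did not pass (unadjusted p = 0.0442, adjusted p = 0.993 in limma), and an exact two-sided sign-flip test over 4 cows has 16 sign patterns, of which 2 are at least as extreme as any result, so that it cannot reach 0.05. Without cow 4 the difference was -0.19, and without cows 2 and 4, whose full libraries stood apart, it was -0.08.

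SLC3A2, the heavy chain that SLC7A5 needs, showed no such shared direction. Its values were 9.75, 9.53, 10.12 and 9.82 in empty gland and 9.79, 9.80, 9.99 and 9.68 in full gland of cows 1 to 4. Cow 2 was higher when full, by 0.27, while cow 3 (-0.13) and cow 4 (-0.14) were lower and cow 1 differed by 0.05. The mean difference of 0.009 ± 0.09 had a 95% interval of -0.22 to 0.24, so an average change beyond about 1.18-fold in either direction lies outside it (adjusted p = 0.997 in limma). In cow 2 the light and heavy chains thus differed in opposite directions (-0.43 and 0.27), and in cow 4 both were lower but unequally (-0.70 and -0.14). Whether the 2 genes' differences are unlike was not tested.

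SLC1A5, the sodium-dependent exchanger of glutamine, was lower when full in 3 of the 4 cows. It read 10.47, 10.30, 10.60 and 9.88 in the empty samples of cows 1 to 4 and 10.55, 10.14, 10.43 and 9.39 in the full ones. Cow 4 had the lowest sample in both states and also the largest difference (-0.49), while cows 2 and 3 differed by -0.16 and -0.17 and cow 1 by 0.09. On average the gene differed by -0.18 ± 0.11 with a 95% interval of -0.45 to 0.08 (adjusted p = 0.993 in limma), by -0.08 without cow 4 and by -0.04 without cows 2 and 4.

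For SLC38A2, the sodium-coupled carrier of alanine, glutamine and other small amino acids, the 2 probe sets did not give the same picture. The brighter one read 12.25, 12.03, 12.32 and 12.17 in empty and 12.24, 12.11, 12.20 and 12.01 in full gland of cows 1 to 4. All 8 of its values lay within 0.31 log2, the narrowest range of any carrier probe set, and its mean difference was -0.05 ± 0.07 (95% interval -0.23 to 0.13). The dimmer one read 10.17, 9.81, 9.90 and 9.98 in empty and 10.28, 9.33, 10.07 and 9.69 in full gland. It differed by -0.48 in cow 2, where the brighter probe set differed by 0.08, and by 0.16 in cow 3, where the brighter one differed by -0.12. Its mean difference was -0.13 ± 0.13, and neither probe set passed (adjusted p = 0.993 for each in limma). The 5' to 3' control differences of the full library of cow 2 stand beside this gap, and their part in it was not tested.

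SLC7A1, the carrier of arginine and lysine, went in opposite directions in different cows. Its empty samples read 7.23, 7.11, 6.91 and 6.99 in cows 1 to 4, and its full samples 7.32, 6.73, 7.22 and 6.53. Cows 2 and 4 were lower when full (-0.38 and -0.45), cow 3 was higher by 0.31 and cow 1 by 0.08, so the full samples spread more widely (SD 0.38) than the empty ones (SD 0.14). The mean of -0.11 ± 0.15 had a 95% interval of -0.47 to 0.25 (adjusted p = 0.993 in limma). Without cow 4 it was 0.0058, and without cows 2 and 4 it was 0.20.

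The glutamate carriers differed from each other in their pattern. SLC1A3, known from glia and also found in other cell types, read 6.37, 6.41, 6.37 and 6.33 in the empty gland of cows 1 to 4, all below the median signal of the arrays (7.08 to 7.24). The full samples read 6.27, 7.11, 6.09 and 6.93, so that cows 2 and 4 were higher by 0.71 and 0.60, or 1.63-fold and 1.52-fold, while cows 1 and 3 differed by -0.10 and -0.28. The SD was 0.03 in empty and 0.50 in full gland, and the mean difference was 0.23 ± 0.19 (95% interval -0.23 to 0.70, adjusted p = 0.993 in limma). Without cows 2 and 4 it was -0.19. A wider spread in full than in empty gland was found for 5 of the 8 carrier probe sets, beside 74% of all probe sets, so it was not a feature of the carriers.

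Some marker lists of non-luminal cells, though not all, had higher medians in the same full libraries as SLC1A3. T and natural killer cell markers (14 of 16 listed genes measured) had a median difference of 0.36 in cow 2 and 0.34 in cow 4, but -0.14 and -0.05 in cows 1 and 3. Myeloid markers (11 of 12) had medians of -0.31, 0.18, -0.15 and 0.77 in cows 1 to 4, and their mean level ranged from 7.83 to 8.06 in empty and from 7.70 to 8.57 in full samples. Fibroblast and matrix markers (12 of 14) had medians of -0.32, 0.16, -0.06 and 0.63, and myoepithelial markers (9 of 10) of -0.01, 0.18, -0.15 and 0.67. Endothelial medians were -0.34 and 0.14 in cows 2 and 4, and those of B and plasma cells 0.0049 and 0.30. Adipocyte, skeletal muscle and erythrocyte medians were not higher in both cows. ZAP70, the brightest T and natural killer marker, differed by -1.02 and -0.11 in cows 2 and 4, and CD14, the brightest myeloid one, by -0.97 and -0.24. The next brightest, CD8A (0.47 and 0.66) and AIF1 (0.18 and 0.64), were higher. In empty gland ZAP70 read 11.87 and CD14 10.85, far above the mean levels of their lists (7.01 to 7.33 and 7.83 to 8.06). Whether the ZAP70 and CD14 signals report those cells was not tested. The part of these cell types in the SLC1A3 values, or in those of SLC7A5, SLC1A5 and SLC7A1, was not tested. Luminal markers (10 of 10) had medians of 0.03, 0.11, 0.07 and 0.08, with 7 genes higher and 3 lower on average. Of the 2 with the highest mean signal, ELF5 differed by 0.05, -0.29, 0.04 and -0.17 in cows 1 to 4. KRT19 differed by 0.14, 0.10, 0.07 and -0.09.

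SLC1A1, the other glutamate carrier, hardly differed between states but widely between animals. It read 7.03, 7.09, 6.43 and 7.64 in empty and 6.91, 7.18, 6.67 and 7.45 in full gland of cows 1 to 4, with a mean difference of 0.0074 ± 0.09 (95% interval -0.23 to 0.24, adjusted p = 0.999 in limma). Cow 4 was highest and cow 3 lowest in both states.

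**Figure D2:**
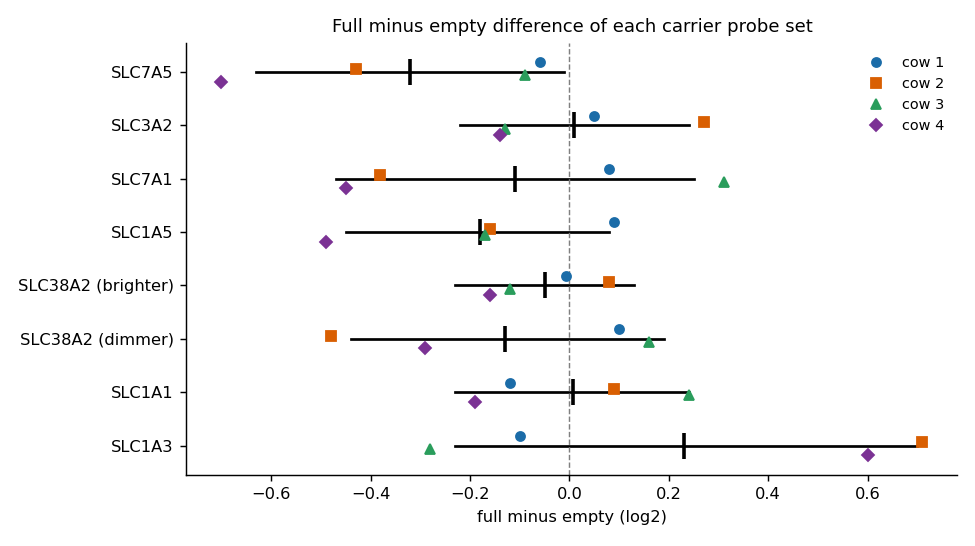
Full minus empty difference (log2, horizontal axis) of each carrier probe set, with 1 marker per cow, the mean as a vertical tick and limma's unadjusted 95% interval as a line. The interval of SLC7A5 (-0.63 to -0.01) ends just below 0 and those of the other 7 probe sets include 0.

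Differences between the 4 animals were tested in the same limma model, with an F-test of its cow terms. SLC1A1, SLC1A5 and SLC7A5 had an unadjusted p under 0.05, that is 3 of the 8 probe sets beside 14.8% of all probe sets. After adjustment 0 of the 8 passed while 0.437% of all probe sets did, with an adjusted p of 0.136 for SLC1A1, 0.163 for SLC1A5 and 0.214 for SLC7A5 in limma. The means of a cow's 2 samples spanned 0.99 log2 for SLC1A1, from 6.55 in cow 3 to 7.54 in cow 4. For SLC1A5 they spanned 0.88, from 9.64 in cow 4 to 10.52 in cow 3, and for SLC7A5 0.86, from 10.97 in cow 4 to 11.82 in cow 3. In these 4 animals the cow with the most SLC1A1 signal had the least SLC1A5 and SLC7A5 signal, and the cow with the least SLC1A1 had the most of both, although for SLC1A5 cow 1 was close to it at 10.51. With 1 gland biopsy per cow and state, the animal and the piece of tissue taken cannot be told apart.

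Other amino acid carriers were read from a list of 41 genes, of which 16 were measured. Of these 8 were higher and 8 lower in the full gland, with a median of 0.006, and 0 passed in limma. At an unadjusted p under 0.05 there was 1, beside 2.50% of all probe sets. SLC43A1, a sodium-independent carrier of leucine and other large neutral amino acids like SLC7A5, was lower in all 4 cows, by -0.17, -0.31, -0.09 and -0.58 in cows 1 to 4, with a mean of -0.29 ± 0.10 (unadjusted p = 0.0277, adjusted p = 0.993 in limma). A lower value in all cows was seen for 5.97% of all probe sets, and naming the genes with the smallest p favours it. SLC1A4, a carrier of alanine, serine and cysteine, differed by -0.39 in cow 2 and -0.45 in cow 4 and by under 0.1 in the other two, with a mean of -0.19 ± 0.11. SLC3A1, a heavy chain related to SLC3A2, differed by 0.12 ± 0.08 and was higher in 3 cows.

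The genes that sense amino acids gave no call either. In the mTORC1 list 29 of 38 genes were measured, 8 higher and 21 lower, where 51.4% of all genes were lower. The median was -0.06, and 0 passed in limma (0 at an unadjusted p under 0.05). AKT1S1, which encodes an inhibitory partner of mTORC1, differed by -0.33 ± 0.14. SESN2, which encodes a leucine sensor that restrains mTORC1, was higher by 0.26 ± 0.11, and ULK1, a kinase that starts autophagy, by 0.15 ± 0.06. ULK1 differed by nearly the same amount in every cow, at 0.17, 0.18, 0.13 and 0.11, whereas AKT1S1 and SESN2 differed most in cows 2 and 4.

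In the list of the amino acid response through GCN2 and ATF4, 27 of 33 genes were measured, with a median of -0.11. Of these 9 were higher and 18 lower, where 51.4% of all genes were lower. None passed in limma, and 4 had an unadjusted p under 0.05, beside 2.50% of all probe sets. The 3 with the smallest p are named here. CHAC1, an ATF4 target that breaks down glutathione, differed by -0.89, -0.20, -0.86 and -0.31 in cows 1 to 4, and TRIB3, a pseudokinase of the same response, by -0.63, 0.03, -0.65 and -0.30. Both were thus lowest relative to the empty gland in cows 1 and 3, where SLC7A5 differed by less than 0.1 log2. Any relation of these genes to the SLC7A5 differences was not tested. Their mean signals lay below the median signal of the arrays (7.08 to 7.24) in both states. ATF3, a stress-induced factor, differed by -0.10, 1.27, 0.61 and 1.13.

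Most measured genes in the lists of amino acid use had a slightly lower mean in the full gland. Cytosolic aminoacyl-tRNA synthetases, which load amino acids onto tRNA, had 13 of 16 measured genes lower and a median of -0.10, with -0.10, -0.09, -0.06 and -0.08 in cows 1 to 4. AARS1 and TARS1, the synthetases for alanine and threonine, were lower in all 4 cows, with means of -0.17 ± 0.07 and -0.15 ± 0.07, and CARS1 differed by -0.25 ± 0.11. Over all genes 51.4% were lower, and the median over all genes was -0.05, 0.03, -0.02 and 0.02 in cows 1 to 4. The list of amino acid breakdown and use had 17 of 23 genes lower and a median of -0.09, with medians of -0.04, -0.14, -0.0082 and -0.10 in cows 1 to 4. In cows 1 and 3 these medians were not below those over all genes. PYCR1, an enzyme of proline synthesis, differed by -0.27 ± 0.12. BCKDHB, a part of the complex that degrades branched-chain amino acids, differed by -0.22 ± 0.10 and GLUD1, glutamate dehydrogenase, by -0.17 ± 0.08, each lower in all 4 cows, and BCKDHB by more in cows 2 and 4 (-0.28 and -0.48) than in cows 1 and 3 (-0.03 and -0.08). In both lists 0 genes passed in limma and 0 had an unadjusted p under 0.05. The genes named from them had the smallest p, a choice that favours 1 direction in all cows. A lower value in all cows was seen for 5.97% of all probe sets, so it is no separate result for these genes. Milk protein genes, the products for which the amino acids are taken up, had a median of -0.0079 over 6 genes, with 0 passing in limma and 0 at an unadjusted p under 0.05. The mean signal of the 6 was high, at 13.82 to 13.98 in empty and 13.82 to 13.93 in full samples. Whether the array resolves differences at that level was not tested. The casein genes CSN3 and CSN1S1 differed by -0.04 ± 0.07 and -0.03 ± 0.07, and PAEP by 0.01 ± 0.07.

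**Figure D3:**
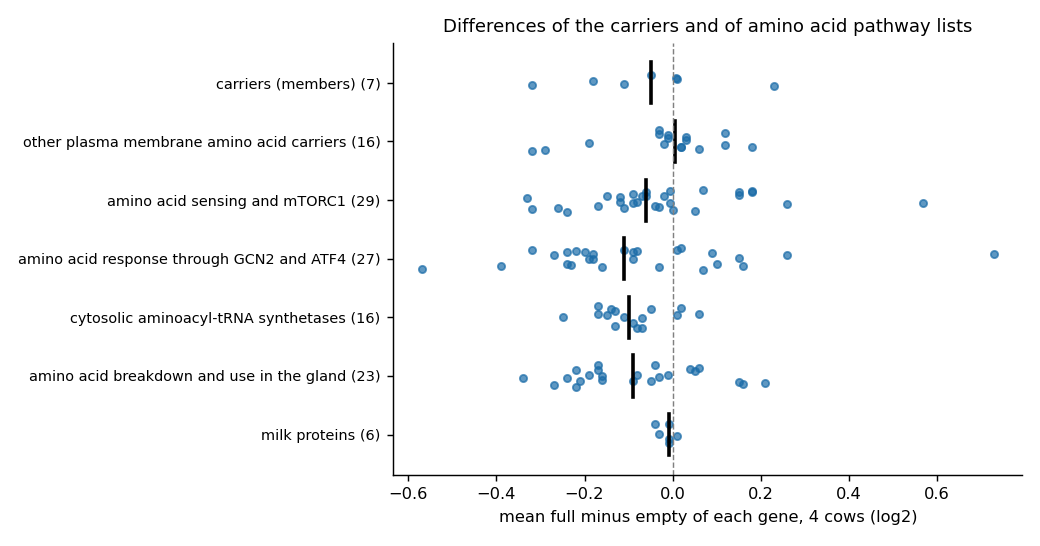
Mean full minus empty difference of each gene (log2, horizontal axis, 1 point per gene, points jittered vertically) for the 7 carriers and 6 amino acid lists, with each median as a vertical bar. The medians lie between -0.11 and 0.006, and the 6 milk protein genes lie within 0.04 of 0.

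**Figure D4:**
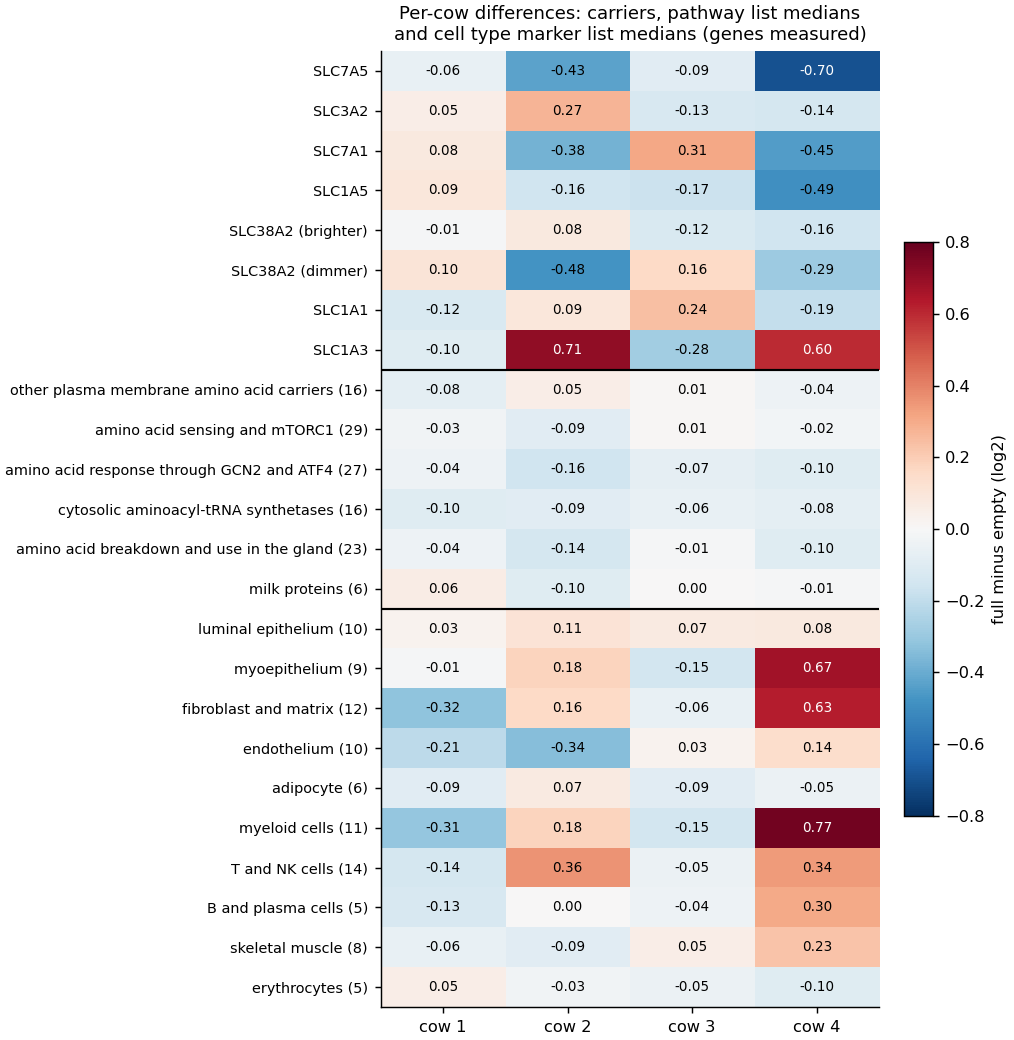
Full minus empty difference (log2, colour and printed value) in cows 1 to 4 for the carrier probe sets, and the median over the measured genes (number in brackets) of each pathway list and each cell type marker list. SLC7A5, SLC7A1 and the dimmer SLC38A2 probe set are lower and SLC1A3 is higher in cows 2 and 4, and the myoepithelial, fibroblast and myeloid medians are highest in cow 4.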

How the data were processed

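The deposited values are log2 signals that the authors obtained with RMA, per the submitters' processing notes (version not given in the sources used here). RMA subtracts background, forces the probe signals of the arrays to equal distributions and combines the probes of a set. A shift common to most genes is thereby hidden at least in part. The medians of the deposited arrays still ranged from 7.08 to 7.24. Per the labels' protocols, cRNA was made from total RNA with an oligo(dT) primer. Arrays give no counting depth: their number sets the precision.

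Of 24128 probe sets, 112 platform controls were left out, and 24016 were tested with limma 3.58.1 under R 4.3.3 (functions lmFit and eBayes, two-sided tests, 3 residual and 2.81 prior degrees of freedom). State and cow were fixed terms, and p-values were adjusted by Benjamini-Hochberg over all probe sets with a threshold of 0.05. Cow pairs the samples, since the descriptions name both samples of each animal. Deviations from the group means correlated within cows at 0.457, 0.319, 0.597 and 0.525, and at -0.0311 or below between cows. Of the probe sets 13292 had 1 symbol, 86 several and 10638 none, and the brightest probe set stood for a gene. The symbols of all 7 carriers matched RefSeq genes of ARS-UCD2.0 by entrez number. No coordinates or sequences are given.

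The members and lists were chosen with earlier results of these data known. Of each pathway list the 3 genes with the smallest unadjusted p were named, and of the marker lists genes of the highest mean signal. For the 3 carriers of widest range, the 3 genes nearest in profile were named. The model was run on simulated data whose differences were larger than those of any carrier. That run does not tell how often differences of the carriers' size would be found. Tables were made with pandas 2.3.3 and figures with matplotlib 3.10.9 in Python 3.11.15. Alternatives were other blocks, scalings, filters and weights, each cow left out, cows 2 and 4 left out, and, added after seeing the data, the 5' minus 3' control difference as a covariate.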

Additional observations from a re-analysis of the deposited data

How the results depend on the processing

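No carrier probe set and no pathway list member passed in limma under any of the 14 other settings tried for full against empty, where the smallest adjusted p was 0.616 for the carriers and 0.271 for the lists, nor did a carrier pass between cows under 8 settings (smallest adjusted p 0.104). With no replicate block, SLC7A5 differed by -0.32 at an unadjusted p of 0.259, and leaving cow out of the model changed no call. The negative sign of SLC7A5, SLC1A5 and SLC38A2 (its brighter probe set, or the mean of both) was kept under 14 of 14 settings, with SLC7A5 between -0.41 and -0.08. With one cow left out at a time, SLC7A5 ranged from -0.41 to -0.19, SLC1A3 from 0.08 to 0.40, SLC7A1 from -0.25 to 0.0058, SLC1A1 from -0.07 to 0.07 and SLC3A2 from -0.08 to 0.06. Without cows 2 and 4 the sign turned for SLC1A3 (-0.19), SLC7A1 (0.20), SLC3A2 (-0.04) and the dimmer SLC38A2 probe set (0.13). With array weights it turned for SLC7A1 (0.06), SLC3A2 (-0.05) and the dimmer SLC38A2 probe set (0.0097). Under median centring it turned for SLC1A1 (-0.0098) and SLC3A2 (-0.0083), under repeated quantile normalization for SLC1A1 (-0.0078), and with the 5' minus 3' covariate for SLC3A2 (-0.01). The causes were not tested. The median of the 7 carriers lay between -0.09 and 0.0058, and among the brighter probe sets, which hold 4 of them, it was -0.12. SLC7A1, SLC1A1 and SLC1A3 have no value among the brighter probe sets, which left them out. With 4 cows, intervals of about 0.2 to 0.5 log2 on each side limit what can be seen.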

Other observations

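For the 3 carriers whose 8 values spanned the widest range, the genes with the most similar profile were listed by the root mean square difference of the 8 centred log2 values, out of 9154 other genes. This is a description of 8 arrays from 4 animals in which the widest gaps lie between cows. Genes picked by this distance have a full minus empty difference near the carrier's by that choice, so it is no separate result. Nearest to SLC7A5, which spanned 1.25 log2, were SLC5A9 (0.10), WIPI1 (0.10) and PPA1 (0.11), where the median over all genes was 0.43. Their full minus empty differences were -0.27, -0.34 and -0.31. SLC1A5 spanned 1.22 log2, and ZNF75D (0.07), SLC5A1 (0.11), which encodes the intestinal type of sodium-glucose cotransporter, and TMA16 (0.12) lay nearest, with differences of -0.23, -0.16 and -0.16. Nearest to SLC1A1 were GSR (0.14), glutathione reductase, ANXA2 (0.15), a membrane-binding annexin, and HSPB2 (0.15), with differences of -0.0035, 0.10 and 0.03.

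Within the SLC38A2 gene, the difference of the dimmer probe set minus that of the brighter one was 0.11, -0.56, 0.28 and -0.12 in cows 1 to 4.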
